A study of Rattus norvegicus with 16 samples.

Results

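Of the 10 genes described here, 9 are commonly listed as targets of the transcription factor p53 (Cdkn1a, Mdm2, Ccng1, Gadd45a, Gdf15, Btg2, Phlda3, Sesn1 and Bax), and the other is Ccnd1, which encodes cyclin D1. They were taken by symbol: all 10 were found among the 17168 genes of the deposited tables, and all 10 were among the 11162 genes that passed the filter on low counts. Cdkn1a is the one inhibitor of cyclin-dependent kinases (CDKs) among them, and 5 other CDK inhibitors are described as a list further on.

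The RNA came from livers of Sprague Dawley rats aged 20 weeks, and libraries were made with a stranded mRNA kit. The groups were KO-MCD (genotype tspo -/-, fed a diet deficient in methionine and choline), WT-MCD (wild type, same diet), KO-CHOW (tspo -/-, fed chow) and WT-CHOW (wild type, fed chow). Each group had 4 libraries, 16 in all, and the diets were given for 8 weeks to rats that had eaten normal food until 12 weeks of age. Tspo encodes a cholesterol-binding protein of mitochondria, and a diet without methionine and choline is a standard way to produce fatty, inflamed liver in rodents. The labels give neither the deleted part of Tspo nor whether each library is a separate animal, so p-values cover the spread among these libraries, which may be technical.

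The p53 protein accumulates after DNA damage and other stresses and switches on genes that halt the cell cycle, aid repair or start cell death. One of them, Mdm2, encodes the ubiquitin ligase that sends p53 for degradation, so target genes are often read as a sign of p53 activity. Cdkn1a encodes p21, which inhibits cyclin-CDK complexes, while cyclin D1 activates CDK4 and CDK6 to phosphorylate the retinoblastoma protein and let cells enter S phase. In rodent liver both genes are known for being switched on when quiescent hepatocytes are driven back into the cell cycle. Most of the target genes also answer to other signals, among them the stress factor ATF4 and growth factor signalling.

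Promoters were compared because the 10 genes are grouped by a shared regulator. RefSeq promoter windows (assembly GRCr8, 250 bases before to 50 bases after the gene start) were held for 8 of the 10 genes, and those of Ccnd1 and Bax were not used here. The p53 decamer, a 10-base unit that a full p53 site holds as a pair, was searched by its consensus on both strands and occurred in 4 of the 8 windows, against 7.89% of 27456 windows of the same length. The 4 are Cdkn1a (chr20:7150682-7150981, plus strand), Ccng1 (chr10:25684827-25685126, minus strand), Gadd45a (chr4:97486750-97487049, minus strand) and Sesn1 (chr20:46948469-46948768, plus strand). The decamer began 201 bases before the start in Cdkn1a, 232 in Ccng1, 48 in Gadd45a and 172 in Sesn1. The window of Btg2 (chr13:48087641-48087940, minus strand) held no p53 decamer but had a cyclic AMP response element, TGACGTCA, at 201 bases before the start, a motif found in 1.91% of windows. These 5 windows are printed 5′ to 3′ on the strand of the gene, with the matches in capitals; the capitals are the p53 decamer in the first 4 and the cyclic AMP response element in Btg2.
Cdkn1a: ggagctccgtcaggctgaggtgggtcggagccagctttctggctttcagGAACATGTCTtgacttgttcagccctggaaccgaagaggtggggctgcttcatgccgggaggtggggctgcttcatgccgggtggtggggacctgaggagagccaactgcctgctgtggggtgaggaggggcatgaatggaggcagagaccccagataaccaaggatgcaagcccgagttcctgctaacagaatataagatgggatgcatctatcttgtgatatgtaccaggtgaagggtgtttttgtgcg
Ccng1: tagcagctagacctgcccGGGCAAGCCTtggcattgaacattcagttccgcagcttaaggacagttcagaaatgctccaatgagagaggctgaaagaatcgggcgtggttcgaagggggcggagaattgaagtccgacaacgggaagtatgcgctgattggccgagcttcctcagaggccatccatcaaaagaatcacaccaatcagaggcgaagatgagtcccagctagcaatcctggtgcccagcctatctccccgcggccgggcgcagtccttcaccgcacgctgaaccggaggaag
Gadd45a: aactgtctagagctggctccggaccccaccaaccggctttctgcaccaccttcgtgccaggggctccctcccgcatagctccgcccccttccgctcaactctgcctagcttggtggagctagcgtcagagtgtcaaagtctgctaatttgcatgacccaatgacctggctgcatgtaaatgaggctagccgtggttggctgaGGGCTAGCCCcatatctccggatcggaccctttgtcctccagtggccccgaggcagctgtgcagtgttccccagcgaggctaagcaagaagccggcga
Sesn1: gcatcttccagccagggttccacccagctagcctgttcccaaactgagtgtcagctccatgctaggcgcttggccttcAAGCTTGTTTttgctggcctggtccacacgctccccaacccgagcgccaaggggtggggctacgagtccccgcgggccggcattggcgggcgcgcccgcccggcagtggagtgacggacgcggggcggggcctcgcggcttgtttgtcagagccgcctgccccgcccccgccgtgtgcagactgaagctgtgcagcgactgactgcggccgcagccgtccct
Btg2: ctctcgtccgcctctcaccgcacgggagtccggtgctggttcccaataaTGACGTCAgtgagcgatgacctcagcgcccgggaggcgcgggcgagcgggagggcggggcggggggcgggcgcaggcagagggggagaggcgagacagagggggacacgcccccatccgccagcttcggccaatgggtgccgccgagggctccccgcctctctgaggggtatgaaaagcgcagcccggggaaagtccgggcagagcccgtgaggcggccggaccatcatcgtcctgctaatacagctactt
The windows of Mdm2, Gdf15 and Phlda3 held neither motif. Other motifs searched on both strands were the AP-1 site TGANTCA (in 7.33% of all windows), the ATF4 composite element TGATGNAA (3.82%), the GC box GGGCGG (34.9%) and the CCAAT box (37.7%). None of the 8 windows held the AP-1 or ATF4 motif, and none of the matches in capitals overlapped a match to another motif. A match describes letters in a short window only, and p53 sites outside it were not searched.

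Library totals ran from 8745756 to 15762650 counts. Levels are given as CPM, counts relative to library size, scaled by TMM factors, so that they are relative to the bulk of genes; lengths were not used, and levels are not compared between genes. Tspo itself had 4.17, 1.66, 1.02 and 1.22 CPM in KO-MCD and 8.78, 9.33, 7.95 and 7.63 CPM in WT-MCD. It had 1.14, 0.656, 1.29 and 4.42 CPM in KO-CHOW and 3.80, 4.37, 3.61 and 5.23 CPM in WT-CHOW. The library labelled KO-CHOW number 4 and the one labelled KO-MCD number 1 thus had Tspo inside the WT-CHOW range. These 2 libraries and WT-CHOW number 4 also stood apart on the second principal component of all genes (16.1% of variance), at -63.7, -44.2 and -33, against -9.1 to 43.2 in the other 13. Results that rest on them are given with and without them, but correlations were computed over all 16 libraries only. The 12 hepatocyte markers checked, Alb and Ttr among them, were all measured, at a summed 110800 to 136100 CPM in KO-MCD, 106200 to 146900 in WT-MCD, 186200 to 244400 in KO-CHOW and 179900 to 218700 in WT-CHOW, as fits the liver label.

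**Figure D1:**
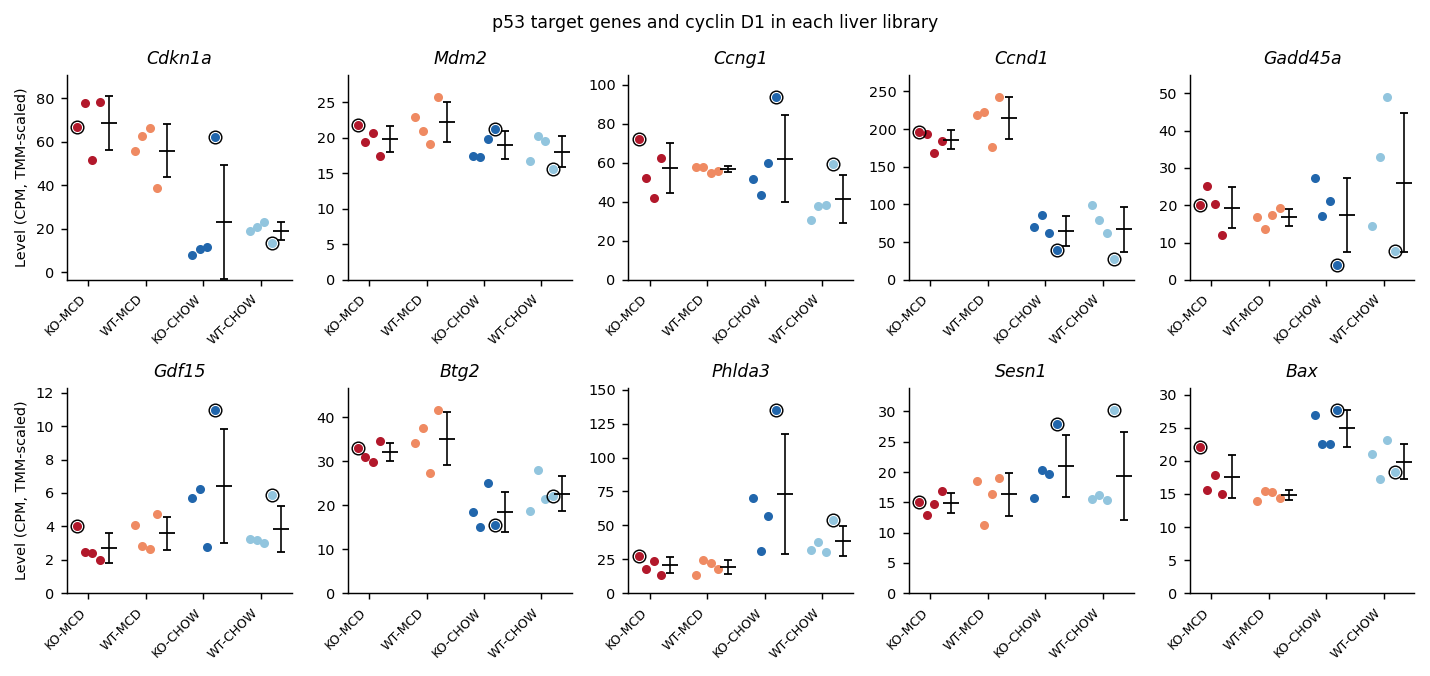
Level of each of the 10 genes (vertical axis, TMM-scaled CPM) in the 4 libraries of each group; the bar beside each group is the mean ± SD (n = 4) and rings mark the libraries labelled KO-MCD number 1, KO-CHOW number 4 and WT-CHOW number 4. Ccnd1 is at 169 CPM or more in every MCD library and below 100 CPM in every chow library, while Cdkn1a is at 62.2 CPM in the ringed KO-CHOW library, above the other KO-CHOW libraries at 7.95 to 11.5 CPM.

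Feeding the methionine- and choline-deficient diet was followed by higher Cdkn1a, Ccnd1 and Btg2 and lower Phlda3 and Bax in both genotypes, and by lower Gdf15 in the knockout. In the knockout 3 of the 10 genes rose, 3 fell and 4 were not called (edgeR's quasi-likelihood test, adjusted p under 0.05 by Benjamini-Hochberg across the 11162 genes), where 40.4% of all genes tested were called, 21.9% higher and 18.5% lower. In wild-type livers 3 rose, 2 fell and 5 were not called, where 34.1% of all genes were called, 18.2% higher and 15.9% lower. The median log2 fold change of the 10 was -0.03 in the knockout and 0.10 in the wild type, beside 0.04 and -0.002 over all genes. The p53 targets among them were thus found on both sides of 0. Without the 3 libraries that stood apart, 3 rose and 3 fell in the knockout, and 4 rose and 3 fell in the wild type. With all 16 libraries, the MCD and chow groups of 2 rising and 2 falling genes of the 10 did not overlap in each genotype. Over all genes tested, the groups did not overlap for 31.6% in the knockout and 38.0% in the wild type. The 2 diet comparisons share no libraries, only the fitted spread, while each comparison between genotypes shares libraries with both. With library totals in place of TMM factors the median log2 fold change of all genes was 0.77 in the knockout and 0.53 in the wild type, so every direction given here is relative to the bulk of genes. In these whole-liver samples, fewer cells of a type and less RNA per cell cannot be told apart.

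Cdkn1a, the p21 gene, had 66.5, 77.9, 51.7 and 78.2 CPM in KO-MCD and 7.95, 10.5, 11.5 and 62.2 CPM in KO-CHOW. All MCD libraries but number 3 lay above all chow libraries, and the overlap was with the single library labelled KO-CHOW number 4. The log2 fold change was 1.58 ± 0.49 (SE; edgeR adjusted p = 0.0175), and it was 2.78 without that library (adjusted p = 2.72e-06) and 2.79 without the 3 libraries that stood apart. With the 2 knockout groups fitted alone it was 1.56 and not called (adjusted p = 0.0731; 8.13e-07 to 0.0731 over 26 alternatives). In the wild type Cdkn1a had 55.7, 62.4, 66.4 and 38.8 CPM in WT-MCD and 19.1, 20.6, 23.3 and 13.3 CPM in WT-CHOW, so the groups did not overlap. The log2 fold change was 1.55 ± 0.49 (edgeR adjusted p = 0.0226), a 2.93-fold higher level. The call was narrowly lost without WT-MCD number 2, WT-MCD number 3 or WT-CHOW number 4 (adjusted p = 0.0509, 0.0501 and 0.0529; 5.26e-05 to 0.0529 over 26 alternatives). Leaving out the single library labelled KO-CHOW number 4, which belongs to neither wild-type group but shares the fitted spread, lowered the adjusted p to 6.59e-05. DESeq2 gave no adjusted p for Cdkn1a in any comparison.

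Ccnd1 had 196.2, 193.8, 168.6 and 184.5 CPM in KO-MCD and 70.2, 86.7, 62.1 and 39.8 CPM in KO-CHOW. Every MCD library was well above every chow library. The log2 fold change was 1.52 ± 0.30 (edgeR adjusted p = 0.00108), 2.87-fold higher. In WT livers it had 218, 222, 176.5 and 243 CPM in WT-MCD and 99.1, 78.9, 61.7 and 27.7 CPM in WT-CHOW, again without overlap, and WT-CHOW number 4 was the lowest. The log2 fold change was 1.68 ± 0.30 (edgeR adjusted p = 0.00063), 3.21-fold higher. Ccnd1 was called in all 27 alternatives in each genotype, with log2 fold changes of 1.32 to 2.21 in the knockout and 1.43 to 2.18 in the wild type.

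Btg2 encodes an antiproliferative protein that binds the CCR4-NOT deadenylase. It had 33.0, 31.0, 29.8 and 34.5 CPM in KO-MCD and 18.4, 15.1, 25.0 and 15.5 CPM in KO-CHOW. The knockout groups did not overlap, and the log2 fold change was 0.79 ± 0.18 (edgeR adjusted p = 0.0032). In WT libraries Btg2 had 34.1, 37.5, 27.2 and 41.6 CPM in WT-MCD and 18.7, 28.1, 21.4 and 22.2 CPM in WT-CHOW. Here WT-MCD number 3 lay just below WT-CHOW number 2, and the log2 fold change was 0.64 ± 0.18 (edgeR adjusted p = 0.0137). This call was lost without WT-CHOW number 1 (0.54, adjusted p = 0.0511; 0.00048 to 0.0511 over 27 alternatives).

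Phlda3, whose product keeps the kinase AKT from the membrane, moved the other way. It had 27.3, 17.97, 23.9 and 13.5 CPM in KO-MCD and 70.2, 30.8, 57.0 and 135 CPM in KO-CHOW. No MCD library reached the lowest chow library, although chow libraries spread widely and the one labelled KO-CHOW number 4 was the highest. Phlda3 fell by 1.83 ± 0.36 on the log2 scale in the knockout (edgeR adjusted p = 0.00121), by 1.35 without the library labelled KO-CHOW number 4 and by 1.52 without the 3 libraries that stood apart. In wild-type livers it had 13.2, 24.3, 22.1 and 17.9 CPM in WT-MCD and 31.6, 37.4, 30.3 and 54.1 CPM in WT-CHOW, without overlap. It fell by 0.99 ± 0.36 (edgeR adjusted p = 0.043), close to the threshold. That call was lost when any 1 of 9 libraries was left out, namely all 4 of WT-MCD, KO-MCD number 2 or 3, KO-CHOW number 1, or WT-CHOW number 2 or 4 (adjusted p up to 0.117). It was also lost with no filter on low counts (adjusted p = 0.0513). With library totals in place of TMM factors the wild-type value was -0.44 (adjusted p = 0.256; 0.00825 to 0.256 over 27 alternatives).

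Bax encodes the pore-forming protein of the mitochondrial route to apoptosis. It had 22.0, 15.6, 17.9 and 15.0 CPM in KO-MCD and 26.9, 22.5, 22.6 and 27.7 CPM in KO-CHOW. The knockout groups stood next to each other without overlap, and Bax fell by 0.50 ± 0.15 on the log2 scale (edgeR adjusted p = 0.0154), a call lost without KO-MCD number 2 (adjusted p = 0.0545) or number 4 (0.055; 0.00236 to 0.226 over 27 alternatives). Among wild-type libraries it had 13.9, 15.5, 15.3 and 14.4 CPM in WT-MCD and 21.0, 17.2, 23.1 and 18.3 CPM in WT-CHOW, also without overlap. It fell by 0.42 ± 0.15 (edgeR adjusted p = 0.0396). Leaving out any 1 library of WT-MCD, or WT-CHOW number 1 or 3, ended that call (adjusted p up to 0.113), as did upper quartile factors (0.0615) and no filter on low counts (0.0628). The direction of Bax depends on the scaling: with library totals alone it was 0.23 in the knockout (adjusted p = 0.226) and 0.11 in the wild type (adjusted p = 0.606; 0.00715 to 0.606 over 27 alternatives).

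Gdf15, a secreted stress hormone, was the most thinly counted of the 10, with 170 counts in all of KO-MCD and 217 in KO-CHOW. It had 4.03, 2.46, 2.40 and 1.99 CPM in KO-MCD and 5.68, 6.23, 2.77 and 11.0 CPM in KO-CHOW. The groups overlapped, and Gdf15 fell by 1.23 ± 0.37 on the log2 scale (edgeR adjusted p = 0.015). The value was -0.85 and not called without the library labelled KO-CHOW number 4 (adjusted p = 0.0689), and -0.48 with library totals alone (adjusted p = 0.223; 0.00362 to 0.223 over 27 alternatives). In the wild type Gdf15 had 4.09, 2.81, 2.67 and 4.76 CPM in WT-MCD and 3.25, 3.16, 3.03 and 5.90 CPM in WT-CHOW, with a log2 fold change of -0.10 ± 0.37 (edgeR adjusted p = 0.849), and 0.45 with library totals alone. A call in 1 genotype and not in the other is no test of their difference, which is given with the interaction.

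Mdm2, Ccng1, Gadd45a and Sesn1 were called in neither genotype. Mdm2, the p53 ubiquitin ligase, averaged 19.8 ± 1.89 CPM in KO-MCD and 19.0 ± 1.97 CPM in KO-CHOW (SD, n = 4 each), a log2 fold change of 0.07 ± 0.14 (edgeR adjusted p = 0.732). It averaged 22.2 ± 2.83 CPM in WT-MCD and 18.04 ± 2.21 CPM in WT-CHOW, a log2 fold change of 0.30 ± 0.14 (adjusted p = 0.109). Its coefficient of variation within a group was 9.5% to 12.7%. With library totals alone, which shift all genes upward, both values were larger and called (0.79 and 0.84; adjusted p = 0.000851 and 0.00084; up to 0.936 and 0.288 over 27 alternatives). Ccng1 encodes cyclin G1, which brings a phosphatase to Mdm2. It had 72.3, 52.3, 42.1 and 62.7 CPM in KO-MCD and 51.6, 43.4, 59.7 and 94.0 CPM in KO-CHOW, with a log2 fold change of -0.11 ± 0.24 (edgeR adjusted p = 0.721). In WT livers it had 57.8, 58.0, 54.8 and 56.0 CPM in WT-MCD and 30.5, 37.8, 38.6 and 59.2 CPM in WT-CHOW. The MCD libraries lay together above all chow libraries but number 4, and the log2 fold change of 0.45 ± 0.24 (edgeR adjusted p = 0.158) became 0.67 without that library (adjusted p = 0.0382) and without all 3 libraries that stood apart (adjusted p = 0.00147; 0.00126 to 0.371 over 27 alternatives).

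Gadd45a, named for growth arrest and DNA damage, spread widely within the chow groups. It had 20.1, 25.0, 20.4 and 11.9 CPM in KO-MCD and 27.4, 17.2, 21.1 and 4.02 CPM in KO-CHOW, a log2 fold change of 0.15 ± 0.50 (edgeR adjusted p = 0.83). In WT libraries it had 16.8, 13.7, 17.3 and 19.2 CPM in WT-MCD and 14.5, 32.9, 49.1 and 7.71 CPM in WT-CHOW, a log2 fold change of -0.63 ± 0.50 (adjusted p = 0.339). Both libraries numbered 4 on chow were the lowest of their group, and without the 3 libraries that stood apart the wild-type value was -0.92 and called (adjusted p = 0.0417; 0.0417 to 0.922 over 27 alternatives). Sesn1 encodes a sestrin, which restrains the growth kinase complex mTORC1. It averaged 14.9 ± 1.60 CPM in KO-MCD and 20.9 ± 5.11 CPM in KO-CHOW, with a log2 fold change of -0.49 ± 0.24 (edgeR adjusted p = 0.111; 0.0451 without WT-CHOW number 4; 0.0451 to 0.365 over 27 alternatives). It averaged 16.3 ± 3.52 CPM in WT-MCD and 19.3 ± 7.29 CPM in WT-CHOW, with a log2 fold change of -0.25 ± 0.24 (adjusted p = 0.436). With library totals alone the Sesn1 values had the other sign, 0.25 in the knockout and 0.30 in the wild type, and were not called.

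**Figure D2:**
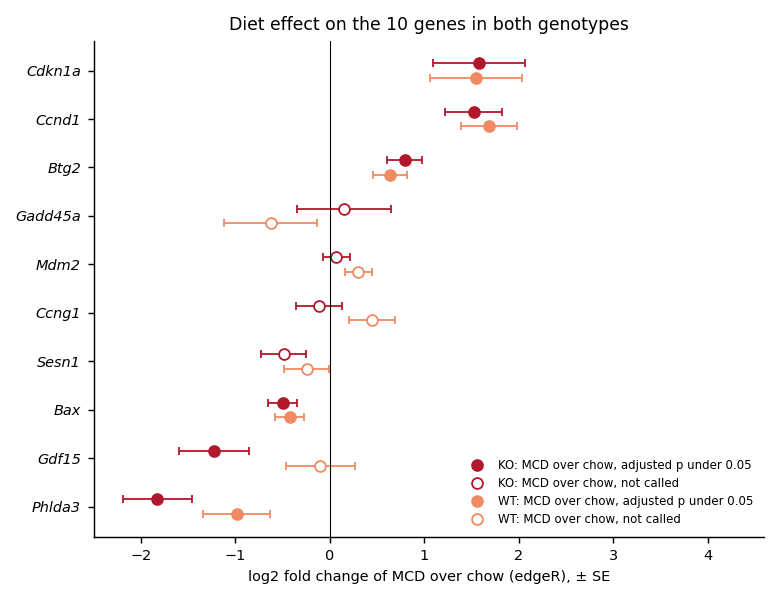
Log2 fold change of MCD over chow (horizontal axis, edgeR, bars ± SE) of the 10 genes in the knockout (upper point of each pair) and the wild type (lower point); filled points have an adjusted p under 0.05. Cdkn1a, Ccnd1 and Btg2 lie right of 0 and Phlda3 and Bax left of it in both genotypes. Among the alternatives Bax changes sign only with library totals alone, to 0.23 in the knockout and 0.11 in the wild type. Gdf15 is at -1.23 in the knockout and -0.10 in the wild type.

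On chow, 0 of the 10 genes were called between KO-CHOW and WT-CHOW, where 0.00896% of all genes were called. At an unadjusted p under 0.05 in edgeR there were 1153 of the 11162 genes tested. Of the 10 genes 3 were among them, all higher in KO-CHOW: Phlda3 at 0.93 ± 0.36 on the log2 scale (edgeR adjusted p = 0.459), Ccng1 at 0.58 ± 0.24 (adjusted p = 0.47) and Bax at 0.33 ± 0.15 (adjusted p = 0.478). For all 3, the library labelled KO-CHOW number 4 was the highest of its group. With 1 library left out, the lowest values were 0.46 for Phlda3, 0.31 for Ccng1 and 0.26 for Bax. Limma called 0 of the 10 as well, and so did DESeq2, which gave no adjusted p for Cdkn1a. The 2 groups of each of the 10 genes overlapped, where 4.34% of all genes had groups apart. For Cdkn1a the value rests on 1 library: it was 0.27 ± 0.49 (adjusted p = 0.825) with all 16 libraries, -0.93 without the library labelled KO-CHOW number 4 (adjusted p = 0.401), and -1.07 and called without the 3 libraries that stood apart (adjusted p = 0.025), when 514 of all genes were called. 3 libraries then remained in each chow group, with 7.95 to 11.5 CPM in KO-CHOW and 19.1 to 23.3 CPM in WT-CHOW. Ccnd1 averaged 64.7 ± 19.5 CPM in KO-CHOW and 66.9 ± 30.3 CPM in WT-CHOW (SD, n = 4 each), a log2 fold change of -0.05 ± 0.29 (edgeR adjusted p = 0.958).

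On MCD, 0 of the 10 genes were called between KO-MCD and WT-MCD by edgeR or limma, and edgeR called 0% of all genes. An unadjusted p under 0.05 in edgeR was found for 81 of the 11162 genes tested and for 0 of the 10. DESeq2 also called 0 of them but gave no adjusted p for Cdkn1a. The edgeR log2 fold changes of the 10 ran from -0.40 ± 0.36 (Gdf15) to 0.30 ± 0.47 (Cdkn1a). The groups of all 10 genes overlapped, where 0.797% of all genes had groups apart. Cdkn1a averaged 68.5 ± 12.5 CPM in KO-MCD and 55.8 ± 12.2 CPM in WT-MCD, and Ccnd1 averaged 186 ± 12.5 CPM in KO-MCD and 215 ± 27.9 CPM in WT-MCD (SD, n = 4 each). A gene missing the threshold is not shown to be equal: for Cdkn1a the SE alone spans a change of 0.47 on the log2 scale to either side. Tspo, the deleted gene, was 2.07 ± 0.45 lower on the log2 scale in KO-MCD with no overlap (unadjusted p = 0.00029), and it too missed the adjusted threshold (edgeR adjusted p = 1.00).

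The difference between the diet effects (knockout minus wild type) was called for 0 of the 10 genes and 0% of all genes by edgeR. Of the 10, only Gdf15 had an unadjusted p under 0.05 in edgeR (0.0447), as had 330 of the 11162 genes tested. The difference for Gdf15 was -1.13 ± 0.52 on the log2 scale. DESeq2 and limma called 0 of the 10, DESeq2 without an adjusted p for Cdkn1a. The difference was 0.03 ± 0.68 for Cdkn1a, -0.16 ± 0.41 for Ccnd1, -0.84 ± 0.50 for Phlda3 and -0.56 ± 0.34 for Ccng1. With 1 library left out, it ran from -1.41 to -0.74 for Gdf15 and from -0.44 to 0.09 for Ccnd1. It then ran from -1.09 to -0.36 for Phlda3 and from -0.78 to -0.29 for Ccng1. For Cdkn1a the difference was 1.38 without the 3 libraries that stood apart (edgeR adjusted p = 0.0604). No difference between genotypes in the diet response of these genes was therefore shown, including for Gdf15.

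Of the 3 libraries that stood apart over all genes, both chow libraries also did so over these 10, and the library labelled KO-MCD number 1 did not. The library labelled KO-CHOW number 4 was the highest of its group for 7 of the 10 genes and the lowest for 2, with a median absolute deviation of 0.87 on the log2 scale from the mean of the other 3 libraries. It was 2.64 above them for Cdkn1a and 2.38 below them for Gadd45a. WT-CHOW number 4 had a median absolute deviation of 0.73, was the highest for 4 genes and the lowest for 4, and was 1.87 below the rest for Gadd45a. The library labelled KO-MCD number 1 was the highest of its group for 6 genes, but its median absolute deviation of 0.16 was like that of the others, which ran from 0.05 to 0.36. The library labelled KO-CHOW number 4 also had the most red cell transcripts of all, at a summed 5068 CPM over 7 markers, where the lowest KO-CHOW library had 599.9 CPM, and whether that bears on its Cdkn1a level was not tested.

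**Figure D3:**
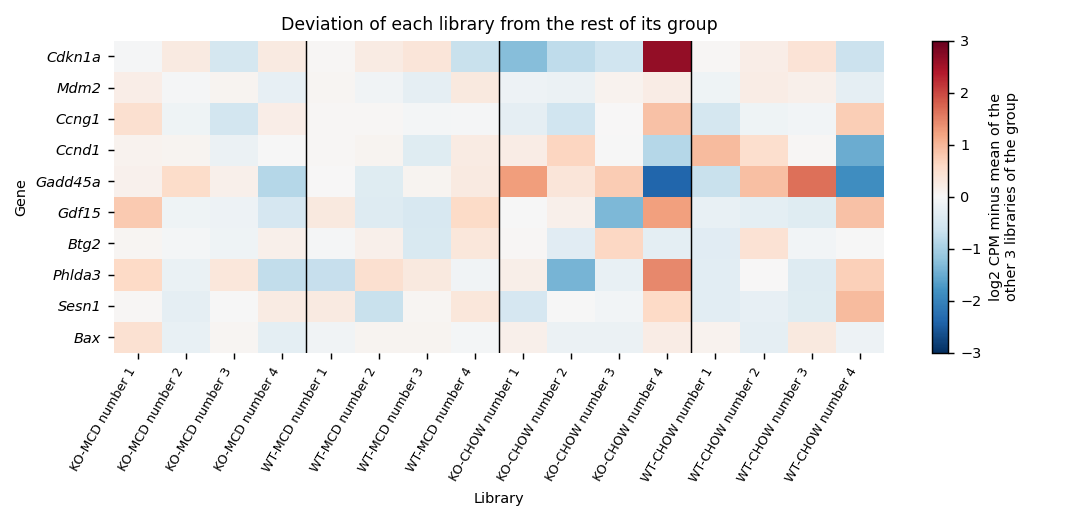
Each cell is the log2 CPM of a gene (rows) in a library (columns) minus the mean of the other 3 libraries of its group; red is above and blue below. The library labelled KO-CHOW number 4 is darkest, from 2.64 for Cdkn1a to -2.38 for Gadd45a, and WT-CHOW number 4 shows -1.87 for Gadd45a.

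Across the 16 libraries the 10 genes did not move as a block. Of the 45 pairs of genes, 23 had a Pearson correlation of log2 CPM above 0; these points share the diet groups and the scaling, so the values are descriptions only. Phlda3 and Bax ran together (0.83), and Phlda3 and Ccnd1 ran opposite (-0.84), as did Btg2 and Bax (-0.81). Cdkn1a and Mdm2, the 2 genes most often read as p53 targets, had 0.50. After each group's mean was taken away, 28 of the 45 pairs were above 0. Cdkn1a and Mdm2 then had 0.28, and Ccnd1 ran opposite to Ccng1 (-0.75) and Sesn1 (-0.71). In both chow libraries numbered 4, Ccnd1 was the lowest of its group and Ccng1 and Sesn1 were the highest. Correlations without these libraries were not computed.

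The genes whose levels were most like Ccnd1 over the 16 libraries were Mthfd2 (r = 0.98), Asns, Reep5, Fam3c and Ddost (0.96 to 0.97). Mthfd2 encodes a mitochondrial folate enzyme and Asns makes asparagine. By deviations from the group means the closest were Psmg2 (0.94), Mthfd2 (0.93), Zc3hc1, Phgdh and Zfp259 (0.91 to 0.92), so Mthfd2 was on both lists. For Cdkn1a the closest in level were Sgsm2 (0.92), Card10, Idh2, Rhoc and Dtx3 (0.91 to 0.92), and by deviations Slc25a16 (0.90), Mdm1, Man2c1, Dgcr8 and Scrn2 (0.88 to 0.89). None of the other 9 genes described here was among them.

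Genes that act on p53 were called for diet about as often as all genes (40.4% in the knockout, 34.1% in the wild type). Of 12 regulators listed, 9 were measured; in the knockout 3 rose and 0 fell (median log2 fold change 0.35, against 0.04 for all genes), and in the wild type 3 rose and 1 fell (0.23, against -0.002). Atm, the kinase that signals DNA breaks, rose by 0.86 ± 0.23 on the log2 scale in the knockout (edgeR adjusted p = 0.00707) and by 0.71 ± 0.22 in the wild type (adjusted p = 0.0225; lost without WT-MCD number 2 or WT-CHOW number 2, up to 0.0768). Hipk2, a kinase that phosphorylates p53, averaged 35.6 ± 18.6 CPM in KO-MCD and 14.1 ± 3.86 CPM in KO-CHOW, and 39.3 ± 11.6 CPM in WT-MCD and 17.8 ± 7.14 CPM in WT-CHOW. It rose by 1.33 ± 0.39 in the knockout (edgeR adjusted p = 0.0132; 0.0554 without KO-MCD number 2) and by 1.15 ± 0.39 in the wild type (adjusted p = 0.0303; lost without WT-MCD number 1 or 2 or WT-CHOW number 1, 2 or 4, up to 0.0795). Usp7, a deubiquitinase of Mdm2 and p53, was called in the knockout (0.84 ± 0.26, adjusted p = 0.0179; up to 0.0695 without KO-MCD number 2 or 4 or with the knockout groups alone) and had 0.62 ± 0.26 in the wild type (adjusted p = 0.0725). In wild-type livers, Chek2, another damage kinase, rose by 0.93 ± 0.30 (edgeR adjusted p = 0.0256; lost in 6 of 27 alternatives) and Kat5, an acetyltransferase that acts on p53, fell by 0.37 ± 0.14 (adjusted p = 0.0476; lost in 20 of 27). Mdm4, the relative of Mdm2 that also restrains p53, had 0.57 ± 0.38 in the knockout and 0.23 ± 0.37 in the wild type. It was not called in either, nor were Chek1, Daxx and Ppm1d.

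Other p53 targets went both ways, as the 10 genes did. Of 60 listed, 52 were in the tables and 48 passed the filter; in the knockout 12 rose and 12 fell, where 40.4% of all genes were called, and in the wild type 13 rose and 7 fell, where 34.1% were called. Their median log2 fold changes were 0.20 and 0.07. Lpin1, a phosphatidate phosphatase, averaged 140 ± 64.2 CPM in KO-MCD and 18.4 ± 5.74 CPM in KO-CHOW, and 121 ± 30.5 CPM in WT-MCD and 18.2 ± 4.69 CPM in WT-CHOW. It rose by 2.93 ± 0.35 in the knockout (edgeR adjusted p = 2.44e-05) and by 2.73 ± 0.35 in the wild type (adjusted p = 4.92e-05). Sesn3, a relative of Sesn1, rose by 1.36 ± 0.23 in the knockout (adjusted p = 0.000428) and 1.55 ± 0.24 in the wild type (adjusted p = 0.000183), while Sesn1 was called in neither. Tnfrsf10b, a death receptor for the ligand TRAIL, rose by 2.09 ± 0.32 and 1.76 ± 0.30 in knockout and wild type. Bbc3 encodes PUMA, a direct trigger of BAX. It averaged 8.52 ± 5.07 CPM in KO-MCD and 25.1 ± 12.7 CPM in KO-CHOW, and 6.20 ± 2.18 CPM in WT-MCD and 16.5 ± 2.78 CPM in WT-CHOW. It fell by 1.56 ± 0.38 in the knockout (edgeR adjusted p = 0.00442) and by 1.41 ± 0.38 in the wild type (adjusted p = 0.00999). Hspa4l, a heat shock protein gene, fell by 2.30 ± 0.32 in the knockout (adjusted p = 6.8e-05) and by 1.08 ± 0.30 in the wild type (adjusted p = 0.0116), the second of these lost with library totals alone. Triap1, which protects cells from apoptosis, fell by 0.74 ± 0.16 in the knockout and 0.90 ± 0.16 in the wild type under TMM scaling, and both calls were lost with library totals alone (adjusted p = 0.967 and 0.0992). Inpp5d, an inositol phosphatase of blood cells, rose by 1.73 ± 0.27 in the knockout. Perp, a desmosome gene, fell by 0.68 ± 0.17 in the knockout and Fdxr, a mitochondrial reductase, by 0.64 ± 0.18 in the wild type under TMM scaling, and with library totals alone neither was called and Perp was 0.05.

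Among the 5 measured CDK inhibitors other than Cdkn1a, 1 rose and 1 fell in the knockout and 0 were called in the wild type, where 0 had an unadjusted p under 0.05 in edgeR and DESeq2 and limma called 0. Over all genes tested, 40.4% were called in the knockout and 34.1% in the wild type, so the knockout count was near that share. In the wild type 5056 of the 11162 genes tested had an unadjusted p under 0.05 in edgeR. Cdkn2c, an inhibitor of CDK4 and CDK6, averaged 3.91 ± 1.201 CPM in KO-MCD and 1.83 ± 0.39 CPM in KO-CHOW and rose by 1.09 ± 0.27 (edgeR adjusted p = 0.00462). Cdkn2b, of the same family, averaged 2.35 ± 0.65 CPM in KO-MCD and 4.12 ± 0.60 CPM in KO-CHOW and fell by 0.81 ± 0.26 (adjusted p = 0.0208). The Cdkn2b call was lost without KO-MCD number 4 (adjusted p = 0.0626), without the 3 libraries that stood apart (adjusted p = 0.0636) and with library totals alone (adjusted p = 0.805). Cdkn1b and Cdkn1c, the closest relatives of Cdkn1a, had log2 fold changes of -0.36 ± 0.28 and -0.34 ± 0.41 in the knockout and -0.16 ± 0.28 and 0.02 ± 0.43 in the wild type. Neither was called, nor was Cdkn3. In the wild type Cdkn2c had 0.51 ± 0.25 (adjusted p = 0.126) and Cdkn2b 0.11 ± 0.26 (adjusted p = 0.755).

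Of the 14 measured genes around cyclin D1, 4 rose and 1 fell in the knockout and 4 rose and 2 fell in the wild type (median 0.16 and 0.46), counts near the 40.4% and 34.1% of all genes called. Myc, the growth transcription factor, averaged 32.9 ± 8.00 CPM in KO-MCD and 5.14 ± 0.83 CPM in KO-CHOW, and 31.3 ± 5.89 CPM in WT-MCD and 8.54 ± 5.11 CPM in WT-CHOW. It rose by 2.67 ± 0.40 in the knockout (edgeR adjusted p = 0.000145) and by 1.89 ± 0.39 in the wild type (adjusted p = 0.00173). E2f1, the factor that the retinoblastoma protein holds back, rose by 1.95 ± 0.36 and 1.48 ± 0.36, and Rbl1, a relative of that protein, by 1.93 ± 0.32 and 1.76 ± 0.32, in knockout and wild type. Ccnd2, encoding cyclin D2, rose in the knockout (1.35 ± 0.33, edgeR adjusted p = 0.00473) and had 0.74 ± 0.32 in the wild type (adjusted p = 0.0815). Ccnd3, encoding cyclin D3, had -0.29 ± 0.14 in the knockout and -0.30 ± 0.14 in the wild type and was not called in either; it was called lower without the 3 libraries that stood apart (-0.37, adjusted p = 0.0342 in the knockout; -0.36, 0.028 in the wild type) and higher in the knockout with library totals alone (0.42, adjusted p = 0.0454). Ccne2, a cyclin E gene, fell by 1.02 ± 0.29 in the knockout and by 1.03 ± 0.30 in the wild type under TMM scaling, and neither call was kept with library totals alone, without the library labelled KO-CHOW number 4 in the knockout (adjusted p = 0.0531) or without WT-CHOW number 3 in the wild type (adjusted p = 0.0517). In WT livers Cdk4, a catalytic partner of cyclin D1, rose by 0.47 ± 0.14 (edgeR adjusted p = 0.0188; up to 0.0571 without WT-MCD number 4 or WT-CHOW number 3) and Rb1, the retinoblastoma gene, fell by 0.58 ± 0.21 (adjusted p = 0.0413; lost in 14 of 27 alternatives), beside 0.30 ± 0.14 and 0.11 ± 0.21 in the knockout. Cdk2, Cdk6, Ccne1, E2f3, E2f4 and Rbl2 were called in neither genotype.

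Of all genes tested, 21.9% rose and 18.5% fell in the knockout, and 18.2% rose and 15.9% fell in the wild type. Their median log2 fold changes were 0.04 and -0.002. Of 23 measured genes of DNA replication and mitosis, 20 rose and 0 fell in the knockout and 19 rose and 0 fell in the wild type, with medians of 1.61 and 1.47. Cdkn1a and these genes were thus higher on MCD in the same groups. Tyms, which makes thymidylate, averaged 9.53 ± 1.04 CPM in KO-MCD and 3.36 ± 0.47 CPM in KO-CHOW, and 9.59 ± 0.84 CPM in WT-MCD and 2.15 ± 0.23 CPM in WT-CHOW. Mcm5, a subunit of the replicative helicase, rose by 2.61 ± 0.34 in the knockout (edgeR adjusted p = 4.34e-05) and by 2.73 ± 0.35 in the wild type (adjusted p = 4.9e-05). The cells in which Cdkn1a and these genes rose cannot be told from whole-liver RNA.

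**Figure D4:**
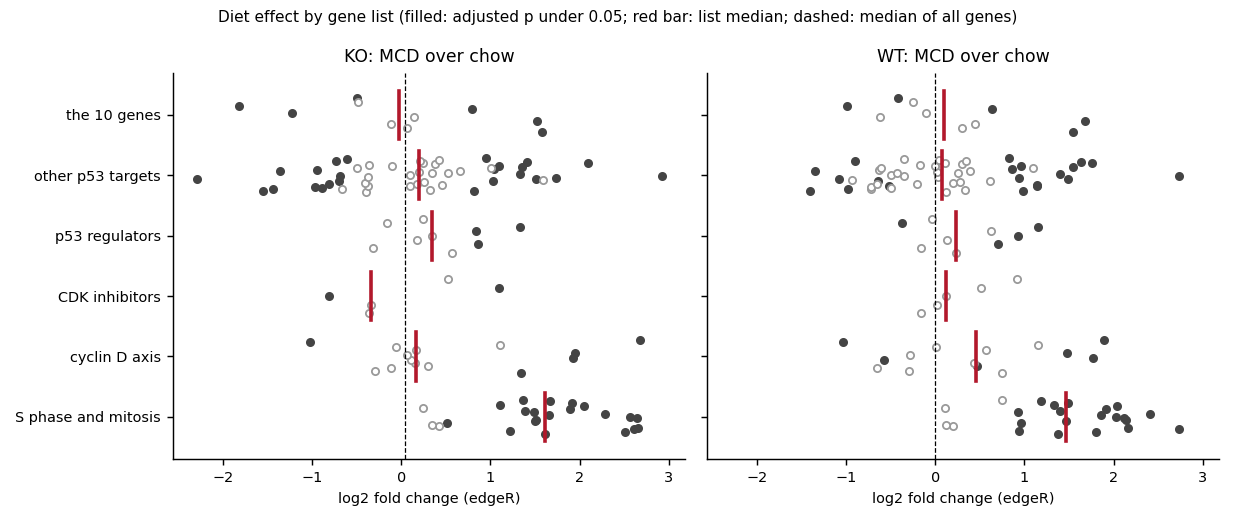
Log2 fold change of MCD over chow (horizontal axis, edgeR) of every tested gene in 6 lists, for the knockout (left) and the wild type (right); filled points have an adjusted p under 0.05, red bars are list medians and the dashed line is the median of all genes. The 10 genes and the other p53 targets spread to both sides of 0, with medians of -0.03 and 0.20 in the knockout and 0.10 and 0.07 in the wild type, while replication and mitosis genes have medians of 1.61 and 1.47.

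Some markers of other cell types were also called for diet, where 40.4% of all genes in the knockout and 34.1% in the wild type were called; the stellate and lymphocyte counts lie near those shares. In the knockout and the wild type, 4 and 4 of 8 measured macrophage markers rose and 2 and 2 fell, 4 and 3 of 9 stellate and fibroblast markers rose, 3 and 3 of 6 bile duct markers rose and 7 and 7 of 7 red cell markers fell. Summed macrophage markers were at 408 to 641 CPM in KO-MCD, 394 to 781 CPM in WT-MCD, 311 to 543 CPM in KO-CHOW and 289.5 to 419 CPM in WT-CHOW. Summed stellate and fibroblast markers were at 427.5 to 608 CPM in KO-MCD, 399 to 1125 CPM in WT-MCD, 232.5 to 339 CPM in KO-CHOW and 263 to 444 CPM in WT-CHOW. Bile duct markers summed to 92.8 to 136 CPM in KO-MCD, 90.0 to 149.8 CPM in WT-MCD, 26.4 to 51.9 CPM in KO-CHOW and 33.5 to 56.1 CPM in WT-CHOW, and red cell markers summed to 119 to 170.3 CPM in KO-MCD, 100 to 271 CPM in WT-MCD, 599.9 to 5068 CPM in KO-CHOW and 1314 to 1940 CPM in WT-CHOW. Of 7 endothelial markers 4 rose in the knockout, and 2 rose and 1 fell in the wild type; of 6 tested lymphocyte markers 2 rose in the knockout, and 2 rose and 1 fell in the wild type. Hepatocyte markers went down more than up, with 1 of 12 higher and 4 lower in the knockout and 1 higher and 5 lower in the wild type. Neutrophil markers summed to under 9 CPM in every library, with Mpo listed at 0 throughout. Their part in the changes of Cdkn1a, Ccnd1, Btg2, Phlda3, Bax and Gdf15 was not tested.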

How the data were processed

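Liver RNA-seq of 16 rat libraries, 4 in each of 4 groups taken from the labels, was analysed. The authors deposited RSEM expected counts per gene (88.9% of them whole) and a second table of normalized signal, TMM-scaled CPM. Bowtie2 2.1.0, RSEM 1.2.15 and build rn6 are named per the submitters' processing notes, without roles; the sources used here give no strand setting. All 202017 signal values above 0 were the rounded count multiplied by a constant of the library (relative tolerance 1e-06); the fractions of the expected counts are in the count table alone.

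Counts were rounded and fitted with edgeR 4.0.16 in R 4.3.3 (quasi-likelihood, TMM factors, robust, filterByExpr, 11162 genes, all 16 libraries, 12 residual degrees of freedom). The script was tested on simulated counts. The contrasts were diet in each genotype, genotype on each diet and their interaction. A call is an adjusted p under 0.05 (Benjamini-Hochberg, across the 11162 genes). SEs are the log2 fold change over the root of F, and log2 CPM used a prior count of 2. Library totals were 10749769 to 15347832 in KO-MCD, 10931113 to 15762650 in WT-MCD, 11330033 to 12521178 in KO-CHOW and 8745756 to 12896848 in WT-CHOW; at a common biological coefficient of variation of 28%, spread between libraries and not counting limits all but the lowest genes. Alternatives were other scalings, no filter, DESeq2 1.42.0, limma 3.58.1 on log2 of the deposited CPM plus 1 or 0.5, only the 2 groups, a replicate block, and libraries left out. The members and lists were chosen with earlier results of these data known. Named were the 10 genes and Tspo, every measured p53 regulator, CDK inhibitor and cyclin D gene, up to 4 called genes of smallest p per direction of the other lists, and the 5 genes most like Cdkn1a or Ccnd1; a few results that this rule names are not reported here.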

Additional observations from a re-analysis of the deposited data

Results flagged for a closer look

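For the 10 genes and Tspo, the 44 combinations of gene and group were searched for 1 library far from the other 3 (gap to the nearest library over the group's range above Dixon's 95% critical value). Chance gives about 1 in 20, and 4 were found, all in libraries numbered 4 on chow. The library labelled KO-CHOW number 4 had 62.2 CPM of Cdkn1a, with a ratio of 0.935, and 4.42 CPM of Tspo, with a ratio of 0.832. The Cdkn1a value moves the fold change of diet in the knockout and the sign of the difference between genotypes on chow, as given with that gene. WT-CHOW number 4 had 5.90 CPM of Gdf15, with a ratio of 0.926, and 30.3 CPM of Sesn1, with a ratio of 0.942. What sets these libraries apart was not tested.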

How the results depend on the processing

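Ccnd1 was called in both genotypes under every alternative that was run, as were Btg2 and Phlda3 in the knockout. Of the 10 genes, diet called 5 to 7 in the knockout with 1 library left out, against 6. In the wild type it called 2 to 5 with 1 library left out, against 5, with calls of Cdkn1a, Btg2, Phlda3 or Bax lost. Without the filter on low counts, and with a replicate block, it called 3 in the wild type. The calls of Phlda3 and Bax were the ones lost there (edgeR adjusted p = 0.0513 and 0.0628 without the filter, 0.0664 and 0.0524 with the block). Over all genes, leaving out 1 library gave 3347 to 5333 calls for diet in KO, 2827 to 4559 for diet in WT, 0 to 15 for genotype on chow, 0 to 1 for genotype on MCD and 0 for the interaction. Library totals alone gave 6852 calls for diet in the knockout, 6447 higher and 405 lower, against 2447 and 2067; in the wild type the split was 4806 and 508, against 2031 and 1778. Upper quartile factors gave 2836 and 1686 in the knockout. For genotype on chow all genes gave 1 call, against 2 with library totals, 23 with DESeq2, 2 with limma at either pseudocount, 0 with the 2 groups alone, 4 without the libraries labelled KO-CHOW number 4 and KO-MCD number 1, and 514 without the 3 libraries that stood apart, when 1 of the 10 genes, Cdkn1a, was called. Without those 2 or those 3 libraries genotype on MCD gave 1 call. The interaction gave 1 call with DESeq2, 1 without the 2 libraries and 4 without the 3. Values called in at least 1 of the fits changed sign with library totals alone for Bax (0.23 in the knockout, 0.11 in the wild type), Kat5 (0.56 and 0.17) and, in the knockout, Ccng1 (0.63), Perp (0.0468), Ccnd3 (0.42), E2f4 (0.66) and Shmt2 (0.22), and for Cdkn1a by genotype on chow (-1.07) without the 3 libraries. Of 1335 values of the 10 genes, 30 lost a call without changing sign and 7 gained one; 63 had the other sign, 4 of them called in 1 of the fits compared and 59 in neither, 17 of the 59 for diet. The causes were not tested.

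Same-numbered libraries did not as a rule deviate together. Of 24 such pairs, 7 had a correlation over 0.1, and 4 of 16 libraries correlated best with their own number. Correlations ran from -0.38 to 0.51, the highest between WT-CHOW number 4 and the library labelled KO-CHOW number 4. The numbers are therefore not taken as pairing. With the replicate block, 4238 genes were called for diet in KO and 3655 in WT. A covariate for long against short transcripts was not run. DESeq2 gave no adjusted p for Cdkn1a. Depth limits Gdf15, with 152 to 242 counts a group.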

Other observations

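Other members of the BCL2 family, to which Bax belongs, went both ways. Of 13 measured besides Bax, 5 rose and 2 fell in the knockout, where 40.4% of all genes were called (median log2 fold change 0.45, against 0.04 for all genes) and 4 rose and 2 fell in the wild type, where 34.1% were called (0.54, against -0.002). Hrk, which encodes a BH3-only protein, averaged 7.44 CPM in KO-MCD and 0.780 CPM in KO-CHOW, and 8.01 CPM in WT-MCD and 0.846 CPM in WT-CHOW. It rose by 3.27 ± 0.48 on the log2 scale in the knockout and by 3.17 ± 0.46 in the wild type (SE; each gene said to rise or fall here had an edgeR adjusted p under 0.05). Bcl2l11, encoding BIM, rose by 2.54 ± 0.63 in the knockout and by 3.77 ± 0.72 in the wild type. Bak1, the pore-forming relative of Bax, rose by 1.04 in the knockout and by 0.79 in the wild type, a wild-type call lost without WT-MCD number 2 (edgeR adjusted p = 0.0527). Bmf, another BH3-only gene, fell by 1.77 in the knockout and by 1.56 in the wild type.

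Several of the 10 genes also answer to other stress signals, and genes of those lists were called for diet about as often as all genes or more often. Over all genes, 40.4% were called in the knockout, 21.9% higher and 18.5% lower. In the wild type 34.1% were called, 18.2% higher and 15.9% lower. Of 20 targets of ATF4 and CHOP, 10 rose and 3 fell in the knockout and 9 rose and 0 fell in the wild type. Asns averaged 25.7 CPM in KO-MCD and 2.48 CPM in KO-CHOW, and 34.1 CPM in WT-MCD and 2.39 CPM in WT-CHOW. Atf4 itself fell by 0.81 and Cebpb by 0.82 in the knockout, both lost with library totals alone. Of 18 immediate early genes 6 rose and 1 fell in the knockout and 6 rose and 2 fell in the wild type, with Egr1 rising by 2.47 ± 0.52 in the knockout and 2.65 ± 0.49 in the wild type. Of 12 NRF2 targets 4 rose and 1 fell in the knockout and 5 rose and 1 fell in the wild type. Abcc4 rose by 2.45 in the knockout and 2.17 in the wild type, and Gsta2 fell by 1.99 in the knockout and 1.23 in the wild type.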
